A study of Homo sapiens with 16 samples.

Results

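The expression of 10 genes that drive or brake the cell cycle was followed in pancreatic cancer cells treated with gemcitabine, genistein or both drugs. The genes were the cyclins CCND1, CCND3, CCNE1, CCNE2, CCNA2 and CCNB1, the inhibitors CDKN1B, CDKN1C and CDKN2C, and the phosphatase CDC25A. They were picked by gene symbol from a table of 63677 genes, with earlier results of these data known. All 10 passed the filter on low counts in every comparison.

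RNA was sequenced from MiaPaCa2 and PANC1, established human lines of pancreatic ductal adenocarcinoma (PDAC). Each line was treated for 24 h in 4 groups, namely a control, 40 nM gemcitabine, 50 µM genistein, and 40 nM gemcitabine with 50 µM genistein. Gemcitabine is a nucleoside analog that blocks DNA synthesis, and genistein is a phytoestrogen from soy. Each group had 2 replicates, labeled I and II, so that there were 16 libraries with 12943482 to 31991860 counted reads.

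Each line is a single cell line and not a panel of tumors. KRT8 and KRT18, keratins of simple epithelia, were at 369 FPKM or more in every library. Of the mesenchymal markers, VIM was at 1398 FPKM or more and ZEB1 at 1.82 to 5.15 FPKM. The epithelial markers EPCAM and CDH1 were at or near 0 in MiaPaCa2 and at 2.70 to 13.2 FPKM in PANC1. Acinar, endocrine and leukocyte markers were listed at 0 to 0.367 FPKM. Of the endothelial markers, PECAM1 was at 0 FPKM in every library and CDH5 reached 1.72 FPKM in MiaPaCa2. Here FPKM is the fragment count scaled to transcript length and to the mapped reads of the library. It was used to set levels of different genes side by side, and it rests on estimated transcript lengths.

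Cyclins bind and activate the cyclin-dependent kinases (CDKs), and each class appears in its own stretch of the cell cycle. D-type cyclins act with CDK4 and CDK6 in G1, E-type cyclins with CDK2 at the entry to S phase, cyclin A2 in S and G2, and cyclin B1 with CDK1 at the entry to mitosis. The CIP/KIP inhibitors p27 (CDKN1B) and p57 (CDKN1C) bind cyclin-CDK complexes, the INK4 inhibitor p18 (CDKN2C) binds CDK4 and CDK6, and CDC25A removes inhibitory phosphates from CDKs. Gemcitabine stalls replication, a state in which checkpoint signaling acts on several of these proteins.

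For the G1/S gene CDC25A and the mitotic cyclin CCNB1, which changed in opposite directions in both lines under gemcitabine, the RefSeq promoter sequence directly before the start of transcription is shown. The stretches hold 120 bases each, are written 5′ to 3′ on the strand of the gene, and lie at chr3:48188418-48188537 (minus strand) and chr5:69167030-69167149 (plus strand) of GRCh38.p14. Capitals mark CCAAT on either strand and the E2F word TTTGGCGC.
CDC25A: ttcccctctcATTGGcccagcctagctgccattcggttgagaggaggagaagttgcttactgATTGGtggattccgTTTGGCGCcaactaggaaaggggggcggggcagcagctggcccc
CCNB1: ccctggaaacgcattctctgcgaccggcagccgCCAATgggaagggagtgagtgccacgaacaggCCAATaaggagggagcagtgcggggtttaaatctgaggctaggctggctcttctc

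The CDC25A stretch had CCAAT on the reverse strand at 110 and 58 bases before the start and TTTGGCGC at 44 bases before it. In the CCNB1 stretch CCAAT stood 87 and 55 bases before the start, with no TTTGGCGC. RefSeq promoters of 300 bases were matched for 7 of the 10 genes, CCND3, CCNE1, CCNA2, CCNB1, CDKN1B, CDKN2C and CDC25A, some with several starts. On either strand, CCAAT was found in 7 of the 11 promoters searched for these genes (6 of the 7 genes) and in 34.6% of all 35116 promoters. Any of 6 E2F words (TTTGGCGC, TTTCCCGC, TTTCGCGC, TTTGCCGC, TTTGGCGG and TTTCGCGG) was found in 1 of the 11 promoters, that of CDC25A, and in 4.30% of all promoters. The word TTTGAA was found in none of the 11 promoters and in 15.2% of all promoters. These matches are a description of the letters only.

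First, the untreated lines were compared. In MiaPaCa2 controls the order of mean level, from the highest, was CCNB1, CCND1, CCND3, CDKN1B, CCNA2, CCNE1, CDKN2C, CDC25A, CCNE2 and CDKN1C, and no neighbors in that order overlapped in their replicates. In PANC1 the order was CCNB1, CCND1, CCND3, CDKN2C, CDKN1B, CCNE1, CCNA2, CDC25A, CCNE2 and CDKN1C, and the replicates of CDC25A, CCNE2 and CDKN1C overlapped with their neighbors. CCNB1 was the most abundant in both lines, with 725 and 672 FPKM in MiaPaCa2 and 385 and 421 FPKM in PANC1.

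PANC1 differed from MiaPaCa2 in 5 of the 10 genes, beside 52.2% of all genes tested. A gene was called where limma-voom gave an adjusted p of at most 0.05, the log2 fold change was at least 0.4 in either direction, and the mean FPKM in the treated group (here in either line) was above 1. CDKN1C and CDKN2C were higher in PANC1, by 2.51 ± 0.48 (SE, n = 2 against 2) and 0.78 ± 0.11 on the log2 scale. Across the alternative fits, including those without a library, the CDKN2C difference was 0.42 to 0.91. CCNA2, CCNB1 and CDKN1B were lower in PANC1, with log2 fold changes of -0.92 ± 0.13, -0.76 ± 0.08 and -0.72 ± 0.09, and the adjusted p-values of all 5 were between 1.57e-06 and 4.35e-04.

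CDKN1C had only 9 and 12 counts in the MiaPaCa2 controls, and its counts scaled to library size (CPM) were 0.534 and 0.893 there against 4.98 and 3.38 in PANC1. CCND1 and CCNE1 passed the adjusted p but not the fold, at 0.29 and -0.29. CCND3, CCNE2 and CDC25A did not pass, with log2 fold changes of -0.24, 0.02 and -0.06, and the 95% interval of CCNE2 was wide, from -0.80 to 0.85. After correction for GC content CCND3 and CCNE1 were called lower in PANC1, at -0.78 (adjusted p = 1.13e-07) and -0.59 (adjusted p = 5.60e-06), and without PANC1 control replicate I they were called at -0.41 (adjusted p = 0.0341) and -0.42 (adjusted p = 0.00543).

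**Figure D1:**
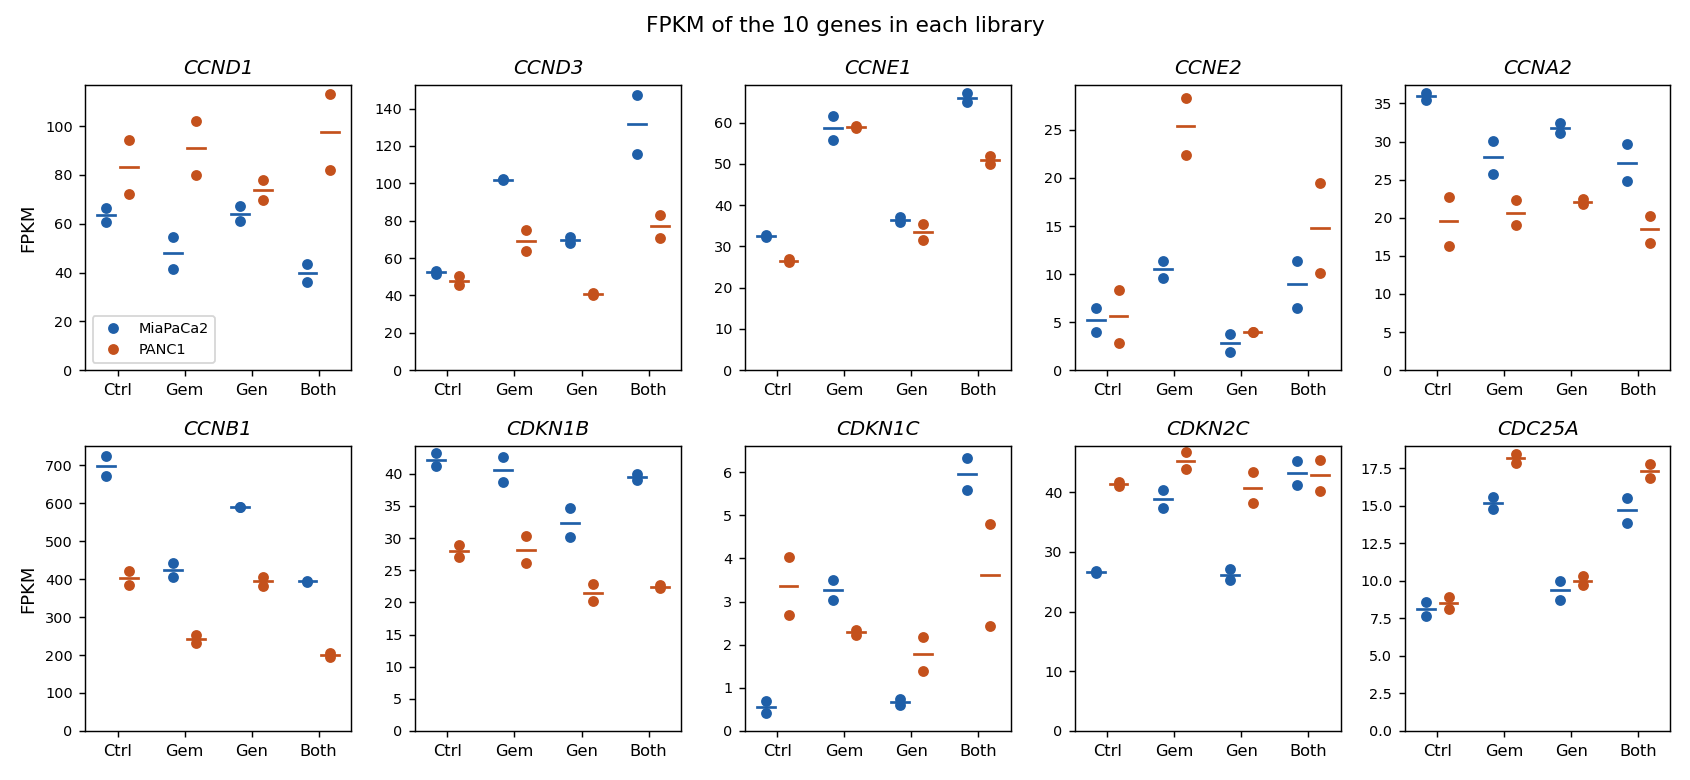
FPKM (y axis) of each gene in the control (Ctrl), gemcitabine (Gem), genistein (Gen) and combination (Both) groups (x axis). Each point is 1 library, each bar the mean of 2 replicates, blue MiaPaCa2 and orange PANC1. CCNE1 and CDC25A are higher and CCNB1 is lower in the gemcitabine-treated libraries of both lines, and CDKN1C is higher under gemcitabine in MiaPaCa2.

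Next, the response to gemcitabine was examined. In MiaPaCa2, 9 of the 10 genes were called (6 rose and 3 fell), beside 29.6% of all genes tested, and the median log2 fold change was 0.62 for the 10 genes and -0.01 for all genes. In PANC1, 4 of the 10 genes were called (3 rose and 1 fell), beside 7.52% of all genes tested, with medians of -0.02 and 0.03. After correction for GC content, 4 of the 10 and 3145 of the 16909 genes tested were called in PANC1. The 10 genes were chosen with earlier results of these data known, so these shares and medians are a description with no test. In both lines CCNE1, CCNE2 and CDC25A rose and CCNB1 fell. In these cultures fewer cells in a phase and less RNA per cell cannot be told apart.

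Among the D-type cyclins of G1, CCND1 (ENSG00000110092, chr11:69455924-69469242, GRCh37) was at 60.7 and 66.3 FPKM in MiaPaCa2 controls and at 54.7 and 41.6 FPKM after gemcitabine. The groups did not overlap, and CCND1 fell by 0.59 ± 0.08 on the log2 scale (adjusted p = 1.76e-04). In the fits of log2(FPKM + 1) and log2(FPKM + 0.1) it was at -0.40 and -0.41 and did not pass (adjusted p = 0.0886 and 0.0898). In PANC1 the CCND1 controls were at 94.5 and 72.3 FPKM and the gemcitabine libraries at 102.2 and 80.2 FPKM, so that the groups overlapped. The log2 fold change there was -0.12 ± 0.08 (adjusted p = 0.369, 95% interval -0.31 to 0.06). LTO1, which shares 10.4% of the CCND1 exon bases on the opposite strand, was at -0.24 in MiaPaCa2 and 0.34 in PANC1 and did not pass (adjusted p = 0.180 and 0.133).

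CCND3 (ENSG00000112576, chr6:41902672-42018095) moved the other way in MiaPaCa2, from 51.6 and 53.1 FPKM to 102.3 and 101.5 FPKM. All treated libraries stood above the controls, and the rise was 0.79 ± 0.11 (log2, adjusted p = 1.40e-04). Across the alternative fits, including those without a library, the rise was 0.49 to 0.96. In PANC1, CCND3 was at 50.2 and 45.4 FPKM in controls and at 74.9 and 63.9 FPKM after gemcitabine. The groups did not overlap, but the log2 fold change of 0.32 ± 0.13 did not pass the test (adjusted p = 0.176).

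CCNE1 (ENSG00000105173, chr19:30302898-30315219), which partners CDK2 at the start of S phase, rose in both lines. It was at 32.7 and 32.4 FPKM in MiaPaCa2 controls and at 55.9 and 61.6 FPKM after gemcitabine, a log2 fold change of 0.81 ± 0.10 (adjusted p = 7.15e-05). In PANC1 it went from 27.0 and 26.2 FPKM to 59.2 and 58.7 FPKM, a log2 fold change of 1.04 ± 0.11 (adjusted p = 0.00283). The treated libraries of each line lay above all controls, and the treated levels of the lines overlapped.

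CCNE2 (ENSG00000175305), the second E-type cyclin, was the less abundant one. In MiaPaCa2 it was at 6.47 and 3.92 FPKM in controls and at 11.4 and 9.62 FPKM after gemcitabine, and it rose by 0.998 ± 0.23 (log2, adjusted p = 0.00520). That call was lost in both FPKM fits (adjusted p = 0.0845 and 0.0982) and with all 16 libraries in the model (adjusted p = 0.0540). In PANC1 the controls were at 2.88 and 8.31 FPKM and the gemcitabine libraries at 22.4 and 28.4 FPKM, a rise of 2.09 ± 0.37 (log2, adjusted p = 0.0173). The groups did not overlap in either line, but the PANC1 controls differed widely from each other.

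INTS8, on the opposite strand, shares 37.05% of the CCNE2 exon bases, and the strand setting of the counting is not given in the sources used here. INTS8 itself did not pass, with log2 fold changes of -0.20 in MiaPaCa2 and 0.09 in PANC1 (adjusted p = 0.241 and 0.821). Its part in the CCNE2 counts was not tested.

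CCNA2 (ENSG00000145386, chr4:122737599-122745038), the cyclin of S and G2, fell in MiaPaCa2 from 35.5 and 36.4 FPKM to 25.8 and 30.0 FPKM. The log2 fold change was -0.49 ± 0.11 (adjusted p = 0.00306), and without gemcitabine replicate I it was -0.36 and did not pass (adjusted p = 0.0553). It was also under the fold threshold after correction for GC content, at -0.29. Its transcripts are 41.9% GC, and for each 10 percentage points of GC levels relative to the mean of the line moved by -0.25 and -0.15 (log2) in the controls of MiaPaCa2, against 0.16 and 0.06 in its gemcitabine libraries. In PANC1, CCNA2 was at 16.3 and 22.8 FPKM in controls and 19.0 and 22.3 FPKM after gemcitabine, so that the groups overlapped (log2 fold change -0.04 ± 0.17, adjusted p = 0.906). EXOSC9, which shares 9.24% of the CCNA2 exon bases on the opposite strand, was at 0.12 in MiaPaCa2 (adjusted p = 0.512) and rose by 0.72 in PANC1 (adjusted p = 0.0482).

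CCNB1 (ENSG00000134057, chr5:68462962-68474072), the cyclin of mitotic entry, fell in both lines. In MiaPaCa2 it went from 725 and 672 FPKM to 406 and 442 FPKM, a log2 fold change of -0.82 ± 0.08 (adjusted p = 1.36e-05). In PANC1 it went from 385 and 421 FPKM to 231 and 252 FPKM, a log2 fold change of -0.89 ± 0.09 (adjusted p = 0.00283). The treated libraries of each line lay below all controls of that line.

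CDC25A (ENSG00000164045, chr3:48198636-48229907), the phosphatase that activates CDK2 and CDK1, rose in both lines. It was at 7.63 and 8.59 FPKM in MiaPaCa2 controls and at 14.8 and 15.6 FPKM after gemcitabine, a log2 fold change of 0.74 ± 0.11 (adjusted p = 2.43e-04). In PANC1 it went from 8.12 and 8.92 FPKM to 17.8 and 18.5 FPKM, a log2 fold change of 1.10 ± 0.12 (adjusted p = 0.00312). No treated library of either line overlapped with the controls.

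Of the inhibitors, CDKN1C (ENSG00000129757, chr11:2904443-2907005) rose steeply in MiaPaCa2, from 0.414 and 0.694 FPKM to 3.04 and 3.49 FPKM. The counts were 9 and 12 in controls and 63 and 71 after gemcitabine, and the log2 fold change was 2.46 ± 0.34 (adjusted p = 1.88e-04). Its level stayed the lowest of the 10 genes. In PANC1, CDKN1C was at 4.04 and 2.69 FPKM in controls and at 2.23 and 2.35 FPKM after gemcitabine, a log2 fold change of -0.62 ± 0.36 that did not pass (adjusted p = 0.331).

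CDKN2C (ENSG00000123080, chr1:51426417-51440306) rose in MiaPaCa2 from 26.4 and 26.7 FPKM to 37.4 and 40.3 FPKM, by 0.50 ± 0.10 on the log2 scale (adjusted p = 0.00169). After correction for GC content (its transcripts are 55.0% GC) the change was 0.29, under the fold threshold. In PANC1 it was at 41.1 and 41.8 FPKM in controls and at 43.9 and 46.7 FPKM after gemcitabine, and the log2 fold change from the counts was -0.01 ± 0.11 (adjusted p = 0.969).

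CDKN1B (ENSG00000111276, chr12:12838432-12875303) was not called in either line. In MiaPaCa2 its controls at 41.1 and 43.2 FPKM overlapped with the gemcitabine libraries at 42.7 and 38.7 FPKM (log2 fold change -0.17, 95% interval -0.36 to 0.03). In PANC1 the controls were at 27.1 and 28.8 FPKM and the gemcitabine libraries at 26.1 and 30.3 FPKM (log2 fold change -0.02, 95% interval -0.31 to 0.26).

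The PANC1 calls rested on both gemcitabine libraries, and far fewer of all genes were called as well when 1 of these libraries was left out. Without gemcitabine replicate I, CCNE2 and CCNB1 lost their calls, at log2 fold changes of 2.27 and -0.81. Without gemcitabine replicate II, CCNE1, CCNE2 and CDC25A lost theirs, at 1.03, 1.90 and 1.06. Their log2 fold changes were 0.81 or more in size in each case.

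**Figure D2:**
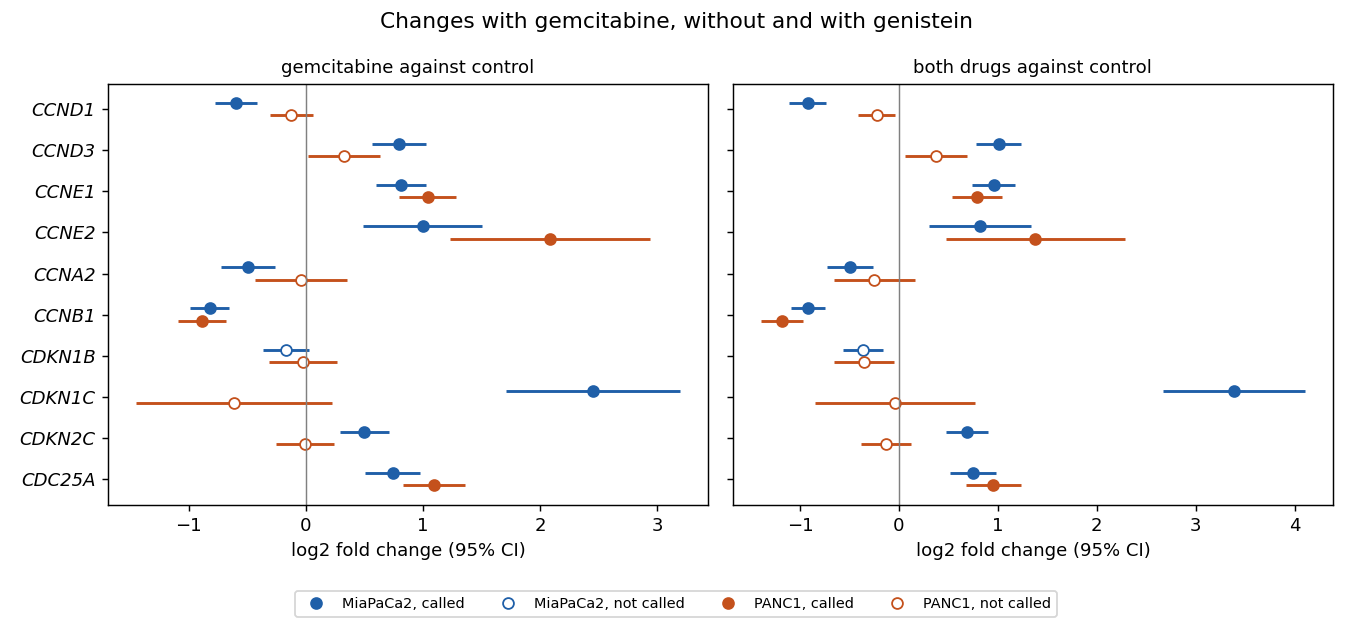
Log2 fold change (x axis, with 95% confidence interval as a bar) of each gene for gemcitabine against control (left) and both drugs against control (right), from limma-voom with 2 replicates a group. Filled points were called and open points were not. CDKN1C has the largest change in MiaPaCa2 and CCNE2 the largest in PANC1.

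Did the lines differ in their response to gemcitabine? The difference itself passed an adjusted p of 0.05 for 3 of the 10 genes, beside 15.3% of all genes tested. CDKN1C differed by -3.15 ± 0.59 on the log2 scale (PANC1 minus MiaPaCa2, adjusted p = 0.00480), CDKN2C by -0.61 ± 0.15 (adjusted p = 0.0182) and CCND1 by 0.37 ± 0.11 (adjusted p = 0.0355). For CCNE1, CCNB1 and CDC25A, which were called in both lines, the differences were 0.14, -0.16 and 0.26, with 95% intervals of -0.17 to 0.44, -0.41 to 0.08 and -0.06 to 0.57. That of CCNE2 was 0.97 with an interval of -0.09 to 2.03, and that of CCND3 was -0.57 (adjusted p = 0.0651), which DESeq2 called at -0.58 (adjusted p = 0.0325). After correction for GC content the differences of CCNE1 (0.30, adjusted p = 0.0409) and CDC25A (0.47, adjusted p = 0.0216) also passed.

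The 3 differences that passed in the main fit depended on single libraries to unlike degrees. CDKN1C lost its pass only without MiaPaCa2 control replicate I, and CDKN2C and CCND1 lost theirs without further libraries too. Without MiaPaCa2 control replicate I none of the 3 passed, with CDKN1C at -2.73 (adjusted p = 0.0527), CDKN2C at -0.52 (adjusted p = 0.112) and CCND1 at 0.45 (adjusted p = 0.0695). CCND1 did not pass without any one of 6 of the 8 libraries compared (adjusted p = 0.0695 to 0.157). CDKN2C also did not pass without MiaPaCa2 gemcitabine replicate II, PANC1 gemcitabine replicate II or PANC1 control replicate I (adjusted p = 0.0697, 0.0838 and 0.0513). Without PANC1 control replicate II, CCND3 (-0.75) and CCNA2 (0.53) also passed, and more of all genes passed as well.

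The combination was then compared with the same controls, so that these values share the control libraries with the gemcitabine comparison. In MiaPaCa2, 9 of the 10 genes were called (6 rose and 3 fell), beside 40.5% of all genes tested. In PANC1, 4 of the 10 were called (3 rose and 1 fell), beside 17.1% of all genes tested. In MiaPaCa2, CCND3, CCNE1, CCNE2, CDC25A, CDKN1C and CDKN2C rose and CCND1, CCNA2 and CCNB1 fell. In PANC1, CCNE1, CCNE2 and CDC25A rose and CCNB1 fell.

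In MiaPaCa2 the combination libraries of CDKN1C were at 5.58 and 6.32 FPKM, above those of every other MiaPaCa2 group, and the log2 fold change against control was 3.39 ± 0.33 (adjusted p = 4.92e-06). CCND1 was at 36.3 and 43.7 FPKM, with a log2 fold change of -0.92 ± 0.08 (adjusted p = 2.97e-06). CCND3 was at 115.7 and 147 FPKM, with a log2 fold change of 1.01 ± 0.11 (adjusted p = 8.34e-06). No combination library of these 3 genes overlapped with the controls.

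CCNE1 was at 67.1 and 64.9 FPKM under both drugs (log2 fold change 0.96 ± 0.10, adjusted p = 7.11e-06). CDC25A was at 13.9 and 15.6 FPKM (0.75 ± 0.11, adjusted p = 1.04e-04), and CDKN2C at 41.2 and 45.3 FPKM (0.69 ± 0.10, adjusted p = 8.74e-05). CCNB1 was at 394 and 396 FPKM (-0.92 ± 0.08, adjusted p = 1.84e-06). These 4 genes, too, stood apart from the controls. After correction for GC content the change of CDKN2C was 0.38, under the fold threshold.

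Smaller or less certain were CCNA2 and CCNE2. CCNA2 was at 24.9 and 29.6 FPKM in MiaPaCa2 under both drugs (-0.50 ± 0.11, adjusted p = 0.00178), and without combination replicate II its log2 fold change was -0.38, under the fold threshold, as it was after correction for GC content (-0.23) and in the fit of log2(FPKM + 1) (-0.39). CCNE2 was at 11.4 and 6.496 FPKM (0.82 ± 0.24, adjusted p = 0.0116), and its lower library lay just above the higher control of 6.47 FPKM. Without combination replicate I the log2 fold change of CCNE2 was 0.45 (adjusted p = 0.0661), and it also did not pass without control replicate I (adjusted p = 0.0508) or II (adjusted p = 0.0632).

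CDKN1B was at 39.9 and 39.0 FPKM and passed the adjusted p in MiaPaCa2 (0.00523) but not the fold, at -0.36.

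In PANC1 under both drugs, CCNB1 was at 205 and 195 FPKM, the lowest of all groups, with a log2 fold change of -1.18 ± 0.09 (adjusted p = 5.53e-04). CCNE1 was at 51.8 and 50.0 FPKM (0.79 ± 0.11, adjusted p = 0.00303) and CDC25A at 16.9 and 17.8 FPKM (0.96 ± 0.12, adjusted p = 0.00211). These 3 genes stood apart from the controls in both replicates. CCNE2 was at 19.4 and 10.1 FPKM (1.38 ± 0.39, adjusted p = 0.0435), and it did not pass without combination replicate I (0.90, adjusted p = 0.153) or control replicate I (0.91, adjusted p = 0.121).

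The other 6 genes were not called in PANC1 under both drugs. CCND1 was at 82.0 and 113.1 FPKM, CCND3 at 70.9 and 83.2 FPKM and CCNA2 at 16.7 and 20.2 FPKM, with log2 fold changes of -0.23, 0.37 and -0.25. CDKN1B was at 22.2 and 22.7 FPKM, CDKN1C at 2.43 and 4.81 FPKM and CDKN2C at 40.2 and 45.4 FPKM, with log2 fold changes of -0.35, -0.04 and -0.13. Of these 6, CDKN1B was called after correction for GC content (-0.45, adjusted p = 0.0118), and CCND3 in both FPKM fits (0.67 and 0.68, adjusted p = 0.0156 and 0.0161). For CCND1 the FPKM mean was above that of the controls while the fold from the counts was below 0. FPKM divides by an estimated transcript length, and the counts do not, but the part of this in the opposed directions was not tested. In CPM, CCND1 was at 193 and 203 under both drugs and at 200.1 and 214 in controls.

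**Figure D3:**
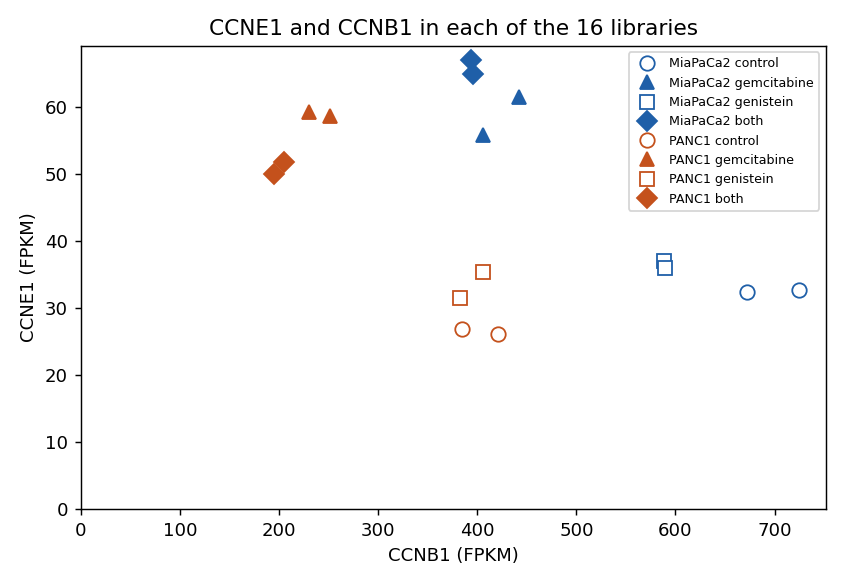
FPKM of CCNE1 (y axis) against FPKM of CCNB1 (x axis). Each point is 1 of the 16 libraries, blue MiaPaCa2 and orange PANC1, filled where gemcitabine was given alone or with genistein. CCNE1 was 4.51% to 8.73% of CCNB1 in the 8 libraries without gemcitabine and 13.8% to 25.7% in the 8 with it.

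The plot of CCNE1 against CCNB1 sets the cyclin of S phase entry beside that of mitosis. In MiaPaCa2 the CCNE1 level was 4.51% and 4.82% of that of CCNB1 in controls, 13.8% and 13.9% after gemcitabine, 6.30% and 6.11% after genistein, and 17.1% and 16.4% after both. In PANC1 it was 7.01% and 6.21% in controls, 25.7% and 23.3% after gemcitabine, 8.23% and 8.73% after genistein, and 25.2% and 25.7% after both. These shares, chosen after the values were seen, are a description with no test. They rest on FPKM, and transcript shares within a gene differed between replicates by up to 13.9 percentage points (CCNE1) and 8.82 (CCNB1).

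With genistein alone few of these genes were called. In MiaPaCa2, 1 of the 10 genes was called, beside 8.31% of all genes tested. In PANC1 none of the 10 was called by limma-voom, edgeR or DESeq2, and 1 gene, CDKN1B, had an unadjusted p below 0.05 in limma-voom. Of the 16909 genes tested there, limma-voom called 0.0591%, edgeR called 12 genes and DESeq2 called 739. After correction for GC content limma-voom called 1311 there, and of the 10 it called CDKN1B (-0.45, adjusted p = 0.0409). For each 10 percentage points of GC, levels relative to the line mean moved by 0.31 and -0.08 (log2) in PANC1 controls. In its genistein libraries they moved by -0.07 and -0.15. The 1 gene called in MiaPaCa2 was CDKN1B, which was at 34.6 and 30.2 FPKM under genistein against 41.1 and 43.2 FPKM in controls.

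The log2 fold change of CDKN1B in MiaPaCa2 was -0.41 ± 0.09 (adjusted p = 0.0148), close to the fold threshold. The call was lost without any one of the 4 libraries (adjusted p = 0.0559 to 0.144) and after correction for GC content (-0.24, adjusted p = 0.0821). In PANC1, CDKN1B was at 20.2 and 22.8 FPKM under genistein against 27.1 and 28.8 FPKM in controls, with a log2 fold change of -0.35 ± 0.13 that did not pass (adjusted p = 0.222). The genistein libraries lay below the controls in both lines.

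CCNE2 in MiaPaCa2 was at 1.86 and 3.78 FPKM under genistein, below the controls at 6.47 and 3.92 FPKM. Its log2 fold change of -0.94 ± 0.29 missed the threshold in limma-voom (adjusted p = 0.0524). It was -0.92 in edgeR (adjusted p = 0.0410) and -0.94 in DESeq2 (adjusted p = 0.00768), which both called it. After correction for GC content it was called at a smaller -0.63 (limma-voom, adjusted p = 0.0294), and without genistein replicate II it was at -1.40. In PANC1, CCNE2 was at 3.99 and 3.97 FPKM, between the controls.

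CCND1 was at 67.2 and 61.1 FPKM under genistein in MiaPaCa2 and at 78.0 and 69.9 FPKM in PANC1, with log2 fold changes of -0.06 (95% interval -0.24 to 0.11) and -0.10 (-0.29 to 0.09). CCND3 was at 67.8 and 71.2 FPKM in MiaPaCa2 and at 40.3 and 41.1 FPKM in PANC1, with log2 fold changes of 0.29 (0.05 to 0.52) and -0.10 (-0.44 to 0.23). CCNE1 was at 37.1 and 36.0 FPKM in MiaPaCa2 and 31.5 and 35.5 FPKM in PANC1, with log2 fold changes of 0.24 (0.02 to 0.46) and 0.25 (-0.02 to 0.52). None of these passed.

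CCNA2 was at 31.1 and 32.4 FPKM under genistein in MiaPaCa2 and at 21.7 and 22.4 FPKM in PANC1. CCNB1 was at 589 and 589 FPKM in MiaPaCa2 and at 383 and 406 FPKM in PANC1, and CDC25A at 8.75 and 10.0 FPKM and at 9.73 and 10.3 FPKM. CDKN1C was at 0.602 and 0.744 FPKM in MiaPaCa2 and 1.38 and 2.17 FPKM in PANC1, and CDKN2C at 25.3 and 27.1 FPKM and at 38.2 and 43.3 FPKM. CDKN1C in PANC1 had the widest interval of these (log2 fold change -0.90, 95% interval -1.86 to 0.06, 22 and 36 counts).

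When genistein was added to gemcitabine, 1 of the 10 genes was called in MiaPaCa2, beside 5.88% of all genes tested. That gene was CDKN1C, which rose from 3.04 and 3.49 FPKM under gemcitabine to 5.58 and 6.32 FPKM under both drugs (log2 fold change 0.93 ± 0.20, adjusted p = 0.0150). The libraries did not overlap, but the call was lost in DESeq2 (adjusted p = 0.0797) and without combination replicate II (adjusted p = 0.0619), gemcitabine replicate I (adjusted p = 0.161) or gemcitabine replicate II (adjusted p = 0.0930). Without combination replicate I, CDKN1C was still called and CCNE2 was called at -0.55, and more of all genes were called as well.

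CCND1 passed the adjusted p for the added genistein in MiaPaCa2 (0.0383) but not the fold, at -0.33 ± 0.09, and after correction for GC content it passed both, at -0.42. In PANC1 none of the 10 genes was called by limma-voom, edgeR or DESeq2. Of the 16909 genes tested there, limma-voom called 0.0177%, edgeR called 3 genes and DESeq2 called 208. CCNB1, CCNE1 and CDKN1B had unadjusted p-values below 0.05 there, with log2 fold changes of -0.30, -0.25 and -0.33. CCNE2 was at -0.71 with a 95% interval of -1.52 to 0.11. After correction for GC content limma-voom called 1364 of all genes in PANC1, but none of the 10.

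**Figure D4:**
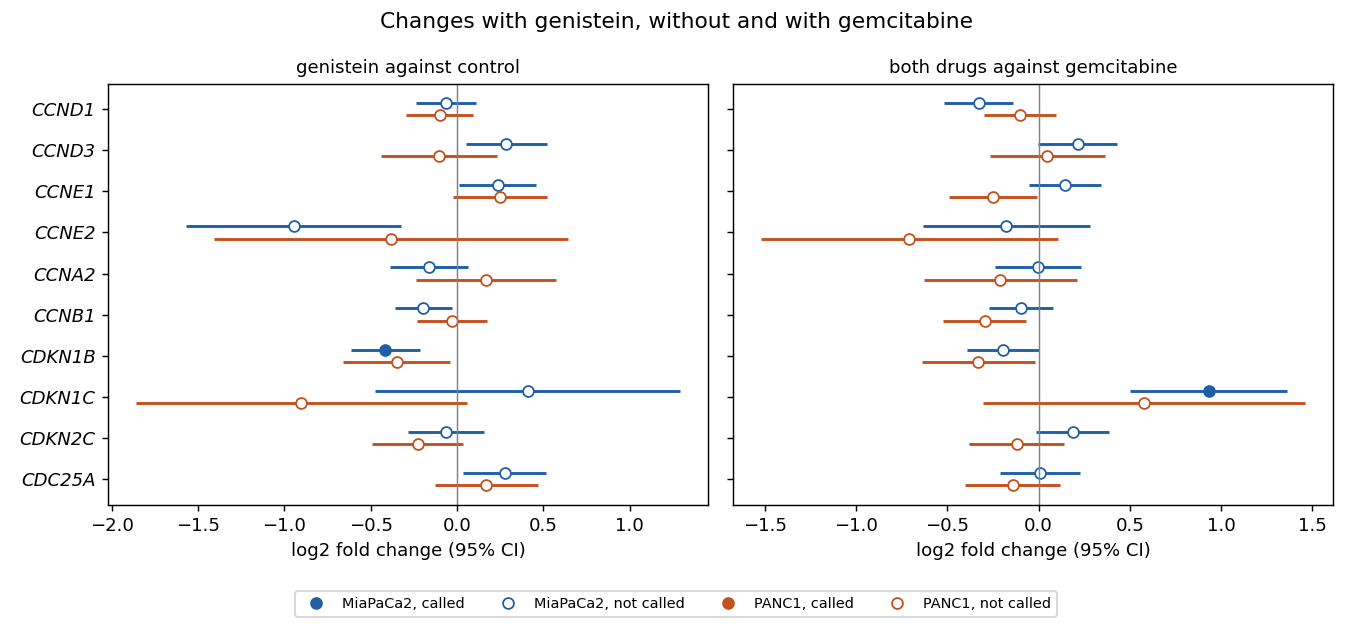
Log2 fold change (x axis, with 95% confidence interval as a bar) of each gene for genistein against control (left) and for both drugs against gemcitabine (right). Filled points were called and open points were not. CDKN1B (left) and CDKN1C (right) in MiaPaCa2 are the 2 called changes, and the intervals of CCNE2 and CDKN1C are the widest.

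Was the effect of both drugs other than the sum of the single drugs on the log2 scale? No gene of the 10 passed this interaction in either line, by limma-voom, edgeR or DESeq2, at an adjusted p of 0.05. By edgeR 4 and 0 of all genes passed in MiaPaCa2 and PANC1, and by DESeq2 34 and 4. Of all genes tested by limma-voom, 0.0249% passed in MiaPaCa2 and 0% in PANC1, where 832 genes had an unadjusted p below 0.05. Below this unadjusted level were CCND1 in MiaPaCa2 (-0.27, adjusted p = 0.588) and CCNE1 (-0.50) and CDKN1C (1.48) in PANC1 (both adjusted p = 0.734). The genistein response did not differ between the lines at an adjusted p of 0.05 for any of the 10 genes, by the same 3 tools. None of the 10 had an unadjusted p below 0.05 in limma-voom. Of the 17863 genes tested, 0.0336% passed by limma-voom, 19 genes by edgeR and 186 by DESeq2.

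A list of 28 other cell cycle genes (other cyclins, CDKs, inhibitors, kinases and phosphatases of CDKs, and turnover factors) was examined in the same fits, of which 25 could be tested (CCNA1, CDKN2A and CDKN2B had too few counts). In MiaPaCa2 7 were called with gemcitabine (3 rose, 4 fell), 4 with genistein (all rose), 8 with both drugs (4 rose, 4 fell) and 3 with both drugs against gemcitabine (all rose). In PANC1 these counts were 4 (2 rose, 2 fell), 0, 6 (1 rose, 5 fell) and 0. Beside these, 29.6%, 8.31%, 40.5% and 5.88% of all genes tested were called in MiaPaCa2. In PANC1 the shares of all genes were 7.52%, 0.0591%, 17.1% and 0.0177%. The median log2 fold change of the list with gemcitabine was -0.11 in MiaPaCa2, against -0.01 for all genes, and 0.09 in PANC1, against 0.03.

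CDKN1A, the CIP/KIP inhibitor p21 and closest relative of CDKN1B and CDKN1C, had the largest change among the called genes of the list in all 4 MiaPaCa2 treatment comparisons. It rose by 3.07 ± 0.15 with gemcitabine, 1.51 ± 0.17 with genistein, 4.07 ± 0.15 with both drugs and 1.004 ± 0.10 with both drugs against gemcitabine (log2). It was 4.41 ± 0.22 higher in untreated PANC1 than in untreated MiaPaCa2, and its gemcitabine response differed by -2.75 ± 0.27 (PANC1 minus MiaPaCa2).

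CDC20, an activator of the ligase that destroys CCNB1, fell with gemcitabine in both lines, by 0.93 ± 0.09 in MiaPaCa2 and 0.97 ± 0.15 in PANC1. It fell by 0.78 ± 0.09 and 0.83 ± 0.15 with both drugs, and rose by 0.42 ± 0.08 with genistein alone in MiaPaCa2. FBXO5, an inhibitor of that ligase, rose by 1.05 ± 0.26 with gemcitabine in PANC1, and its response was 1.07 ± 0.28 larger there than in MiaPaCa2. The CDK-binding adaptor CKS1B rose by 0.60 ± 0.12 with genistein in MiaPaCa2. Its relative CKS2 fell by 0.44 ± 0.09 with gemcitabine in MiaPaCa2, rose by 0.47 ± 0.08 with genistein and by 0.49 ± 0.09 with both drugs against gemcitabine, and with both drugs against control it was at 0.05 (adjusted p = 0.657).

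Between the untreated lines, 15 of the 25 genes differed, 5 higher and 10 lower in PANC1, beside 52.2% of all genes tested. CDK6, a partner of the D-type cyclins, was 3.10 ± 0.23 higher in PANC1, and with both drugs it fell there by 0.83 ± 0.24. The INK4 inhibitors CDKN2A and CDKN2B, relatives of CDKN2C, were listed at 0 FPKM and had 0 counts in all 16 libraries, which allows up to 3 counts a library by counting error.

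Transcripts of the genes were also estimated, but the estimated shares were unstable between replicates, with gaps of up to 50.6 percentage points (CDC25A). For CDKN1C a single transcript, ENST00000380725, held 91.6% or more of the FPKM in all 16 libraries. For CCND1 the transcript ENST00000545484 held 40.0% to 44.9% under genistein alone in MiaPaCa2 and 43.7% to 46.0% in PANC1, above the 20.0% to 36.95% and 20.7% to 34.4% of the other 3 groups. The transcript ENST00000542367 was below the other groups in the same libraries, at 9.74% or less. These shares were singled out after the values were seen and were not tested.

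Finally, the genes most like 3 of the 10 were sought by Pearson correlation of log2 levels over the 16 libraries, each line centered on its mean, among 13668 genes. The closest to CCND1 were SOX9 (r = 0.9747), IRS1 (r = 0.970) and LTBP2 (r = 0.968). The closest to CCNE2 were FAM111A (r = 0.978), EIF2AK3 (r = 0.961) and ESCO2 (r = 0.958), and the closest to CCNB1 were HSPA8 (r = 0.984), ANXA2 (r = 0.982) and DSTN (r = 0.981). All points share treatments, libraries and depth, so that these values are a description.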

How the data were processed

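The authors deposited raw counts per gene, whole numbers from stranded poly-A libraries read with single 50-base reads. Per the labels and the study's methods, reads were mapped to GRCh37 with TopHat2 2.0.4, filtered with Picard 1.29 and counted with HTSeq 0.6.1. The authors also deposited FPKM per gene and per transcript from Cufflinks 2.1.1. Neither the annotation release nor how HTSeq handled strand is given in the sources used here. Gene coordinates, exon overlaps and GC content come from GENCODE v44 on GRCh37, and promoters from RefSeq.

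Counts were fitted by limma-voom (R 4.3.3 with limma 3.58.1) after edgeR 4.0.16 filtering (filterByExpr) and TMM normalization, with 8 libraries a line in a model of group means, or 16 libraries for comparisons between lines. Adjusted p-values are Benjamini-Hochberg values over all genes of a fit. A call needed an adjusted p of at most 0.05, a log2 fold change of at least 0.4 in size and a mean FPKM above 1. Interactions and differences between lines were judged by the adjusted p alone. The study calls the 2 replicates biological, and p-values measure the spread between these libraries. Same-numbered replicates did not deviate together (correlations from -0.262 to 0.131 in MiaPaCa2 and from -0.505 to 0.256 in PANC1), so the number was no term of the main model. The fits were tested on simulated data. Alternatives were edgeR and DESeq2 1.42.0 tests, other scalings, filters and sample sets, GC correction (loess, span 0.3), limma-trend on log2(FPKM + 1) and log2(FPKM + 0.1), and leaving out each library.

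The 10 genes and the lists were chosen with earlier results of these data known. All 10 are named. Of the other cell cycle genes the 2 with the largest change among those called in a comparison are named, and for CCND1, CCNE2 and CCNB1 the 3 most similar genes. Where a symbol had several identifiers, that with the most counts was used.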

Additional observations from a re-analysis of the deposited data

Results flagged for a closer look

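The response of 3 genes to gemcitabine differed between the lines by a test of the difference itself (limma-voom, all 16 libraries, PANC1 minus MiaPaCa2 on the log2 scale). CDKN1C differed by -3.15 (adjusted p = 0.00480). In the separate fits of 8 libraries a line it rose by 2.46 in MiaPaCa2 and was at -0.62 in PANC1, where it did not pass. In MiaPaCa2 both treated libraries were above both controls, and in PANC1 both were below. CDKN2C differed by -0.61 (adjusted p = 0.0182), with changes of 0.50 and -0.01 in the separate fits. CCND1 differed by 0.37 (adjusted p = 0.0355), with changes of -0.59 and -0.12 in the separate fits. The changes and the differences come from unlike fits, so they need not add up. The untreated levels of CDKN1C and CDKN2C were higher in PANC1, by 2.51 and 0.78 on the log2 scale, and the part of these levels in the differences was not tested. None of the 3 passed without MiaPaCa2 control replicate I (CDKN1C -2.73, CDKN2C -0.52, CCND1 0.45).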

How the results depend on the processing

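No called change of the 10 genes changed sign under any alternative or without any library. Of 36 called values, 22 kept their call in every alternative other than leaving out a library, and 18 kept it in all. Of 2280 alternative values, 74 lost and 31 gained a call, and the 120 changes of sign were all in values called in neither fit. CCNB1, CCND3, CCNE1, CDC25A and CDKN1C with gemcitabine in MiaPaCa2 were among those kept in all.

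The number of genes called changed by over 1.5 times as follows. With genistein in MiaPaCa2 it was 1, but 2 by edgeR, DESeq2 and with the groups compared alone, 0 by both FPKM fits and with all 16 libraries in the model, and 0 to 1 leaving out a library. With both drugs against gemcitabine in MiaPaCa2 it was 1, but 0 by DESeq2, both FPKM fits and all 16 libraries, 2 after GC correction (with and without the replicate block) and by adjusted p alone, and 0 to 2 leaving out a library. With gemcitabine in PANC1 it was 4, and 1 to 4 leaving out a library. With genistein in PANC1 it was 0, and 1 after GC correction (CDKN1B, -0.45). With both drugs in PANC1 it was 4, and 2 with the groups compared alone. The difference in gemcitabine response passed for 3 genes, for 5 after GC correction (CCNE1 and CDC25A added), for 1 by both FPKM fits and with the groups compared alone, and for 0 to 5 leaving out a library. Further losses were those of CCNA2 with gemcitabine (adjusted p = 0.0706 and 0.0709) and CCNE2 with both drugs (0.147 and 0.166) in MiaPaCa2 by the FPKM fits, of CCNE2 with both drugs in MiaPaCa2 with all 16 libraries (0.0795), and, with both drugs in PANC1, of CCNE2 by the FPKM fits (0.0782 and 0.0794), without the low-count filter (0.0525) and with the groups compared alone (0.136), and of CCNE1 with the groups compared alone (0.0587). The number called over all genes also changed in these fits. With genistein in MiaPaCa2 it was 1335, but 1211 by DESeq2, 229 and 248 by the FPKM fits and 1709 with the groups compared alone. With both drugs against gemcitabine in MiaPaCa2 it was 945, but 806 by DESeq2, 492 with all 16 libraries and 1582 after GC correction. With both drugs in PANC1 it was 2898, but 574 with the groups compared alone. The difference in gemcitabine response passed for 2728 genes, but for 1622 and 1308 by the FPKM fits and 4827 after GC correction. The causes were not tested.

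Nothing in the labels pairs same-numbered replicates, and the low correlations of their deviations cannot show that they were unpaired. With the replicate block CCNE2 lost its call with gemcitabine (2.09, adjusted p = 0.0506) and with both drugs (1.37, adjusted p = 0.0803) in PANC1, and CCND1 no longer differed between lines (0.37, adjusted p = 0.0521). Library size alone moved the median of all genes by 0.11 with gemcitabine in each line, by 0.16 with both drugs in PANC1 and by 0.10 in the difference between lines. Under it CCNA2 with gemcitabine in MiaPaCa2 was at -0.39, and CCND3 with both drugs in PANC1 was called at 0.53. CDKN1C had 9 to 22 counts in MiaPaCa2 without gemcitabine, and the SE of its log2 fold change with genistein there was 0.41.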
